A study of Mus musculus with 16 samples.

Results

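Hearts of C57BL/6 mice taken after 3 days of encounters with an aggressor mouse were compared with hearts taken after 1 day, each followed by 1 day of rest. The comparison used 8 of the 16 arrays of the series: 4 labelled T3R1 (3 days of stress) and 4 labelled T1R1 (1 day of stress), 1 heart per array, chosen by their labels alone. Stressed mice sat in a mesh box in the cage of an aggressor for 6 hours a day and were bitten in short direct contacts. Exposure is given here as the group labels state it, although the shared treatment description speaks of longer series. The daily encounters took place at varying times, and neither the age of the mice nor the hour of collection is given in the sources used here. All groups share strain and tissue, and no transgene or drug was used. Total RNA labelled with Cy3 was read on a 1-colour array with probes for messenger RNA and long noncoding RNA. Levels are log2 signals minus the 75th percentile of their array, so a level of 0 lies at that percentile, and fold changes are T3R1 minus T1R1 on the log2 scale with their standard error (SE).

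The adult heart is built mostly of muscle cells that rarely divide, set among fibroblasts, vessel cells and resident macrophages that can. Fibroblasts that become activated divide, take up contractile proteins of smooth muscle and secrete collagen and other matrix proteins, and macrophages clear debris and release chemokines. Repeated social defeat is used in mice as a model of posttraumatic stress, and its hormonal arm acts through glucocorticoids and catecholamines, both of which reach the heart.

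Of 23575 features tested, 5053 (21.4%) passed an adjusted p of 0.05 (limma, Benjamini-Hochberg), 1696 (7.19%) higher and 3357 (14.2%) lower in T3R1. The median log2 fold change of all features was -0.06. Scaling each array to its median in place of its 75th percentile adds nearly the same amount to every fold change; it moved that median to 0.34 and the share of changed features that were higher from 33.6% to 84.9%, so small changes in either direction depend on the scaling. Among 15642 gene names, 1465 (9.37%) were higher and 1416 (9.05%) lower. For 3742 (23.9%) of them the arrays of the groups did not overlap, and for 1904 (12.2%) all T3R1 arrays lay above all T1R1 arrays. These shares belong beside every gene said below not to overlap. The T3R1 arrays correlated with each other at 0.99 to 0.992 across features and the T1R1 arrays at 0.981 to 0.984, against 0.963 to 0.983 between the groups; features are not independent replicates and these carry no test. The 75th percentile of signal was 337 to 408 scanner units on T3R1 and 308 to 370 on T1R1, and 53.8% to 67.1% and 46.5% to 65.6% of spots were well above background. The 4 arrays per group limit the precision of every value. The cardiomyocyte markers, 12 of 12 measured, had a summed log2 level of 11.8 to 12.4 on the 8 arrays. The brightest markers set that sum, so it does not give the level of each.

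The T3R1 arrays lay on 1 slide and the T1R1 arrays on the other, so slide and length of exposure cannot be told apart in any direct value below. Control arrays shared the slide of T3R1, and T2R1 arrays (2 days of stress) that of T1R1. Differences within a slide, T3R1 minus control and T2R1 minus T1R1, are therefore set beside the results from a fit of all 16 arrays. One control stands apart: control replicate 1 correlated at 0.988 on average with the T3R1 arrays and at 0.968 with the other controls. In T3R1 against control 116 gene names (0.742%) were higher with all 4 controls and 2066 (13.2%) without that array, and 48 (0.307%) and 3292 (21%) were lower; leaving that array out was chosen after seeing the data. In T2R1 against T1R1 limma called 0 features, with 1888 (8.01%) at an unadjusted p under 0.05. This contrast comes from the fit of all 16 arrays, which pools the spread of every group, control replicate 1 included. It was not fitted without that array, so its count of 0 carries that limit. Values of T3R1 against control without control replicate 1 come from a second fit that leaves that array out.

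Genes of cell division showed the widest gap between the groups. Of the 22 measured genes of the mitosis list, 21 were higher in T3R1 and 1 was lower, against 9.37% of gene names higher, and the median was 3.18. Ccnb1, the cyclin that starts mitosis (probe on chromosome 13 at 101548722 to 101548781, mm9 build, to which all probe positions refer), read 0.33, 0.10, 0.77 and -0.08 on the T3R1 arrays and -2.68, -3.30, -4.99 and -3.90 on the T1R1 arrays. The lowest T3R1 array thus lay far above the highest T1R1 array. The difference was 4.0 ± 0.45 (SE, n = 4 per group, adjusted p = 0.00123, limma), and other Ccnb1 probes gave 2.33 (adjusted p = 0.0517) and 1.26 (adjusted p = 0.124). Mki67, the proliferation marker (chromosome 7 at 142881591 to 142881650), read 2.61, 2.38, 2.62 and 2.16 in T3R1 and -0.25, -0.98, -1.64 and -1.98 in T1R1. All 8 arrays kept apart by group, and the fold change was 3.65 ± 0.34 (adjusted p = 0.000894, limma).

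Cdc20, which switches on the ligase that ends mitosis, rose by 2.84 ± 0.19, Ccnb2, a second B-type cyclin, by 3.18 ± 0.20, and Kif20a, a motor of the dividing spindle, by 2.71 ± 0.15. Tpx2, a spindle assembly factor, rose by 3.69 ± 0.29 and Birc5, the inhibitor protein survivin, by 3.73 ± 0.31 (adjusted p between 0.00046 and 0.000721 for these 5, limma). Another probe of Tpx2 read 0.55 (adjusted p = 0.274), so its size depends on the probe. Cdk1, the kinase partner of the B cyclins, rose by 4.28 ± 0.38 with 1 T1R1 value missing, an outlier spot on replicate 2. Bub1, a spindle checkpoint kinase, was well above background on no T1R1 array and is therefore at least 4.53-fold higher. Outside the list, bounds of the same kind held for Aspm, a spindle pole protein, at 9.11-fold, and for the kinetochore genes Nuf2 at 6.84-fold and Ska1 at 5.87-fold; Fanci, a DNA repair gene, was at least 3.60-fold higher. The mitotic kinases Pbk (4.56 ± 0.28) and Melk (3.95 ± 0.43), the mitotic entry gene Cdca3 (4.28 ± 0.46) and Shcbp1 (3.84 ± 0.44) were among the 12 highest fold changes. The exception within the list was Cenpa, the centromeric histone, at -0.28 ± 0.07 (adjusted p = 0.0305), or 0.125 with median scaling; it was picked out after its value was seen and kept the call in 2 of the 8 fits that left out 1 array.

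DNA replication genes moved the same way with smaller sizes. Of 24 measured, 21 were higher and 1 lower, against 9.37% and 9.05% of gene names, with a median of 0.96. Rrm2, the small subunit of ribonucleotide reductase, read 1.43, 1.42, 1.49 and 0.98 in T3R1 and -0.32, -0.64, -1.52 and -1.38 in T1R1. The groups did not overlap, and the difference was 2.30 ± 0.27 (adjusted p = 0.00139, limma). Tk1, a thymidine salvage kinase, rose by 2.55 ± 0.21, the large reductase subunit Rrm1 by 1.10 ± 0.11, the cell cycle transcription factor E2f1 by 1.45 ± 0.20, the helicase subunit Mcm7 by 0.94 ± 0.14 and the primase subunit Prim1 by 0.98 ± 0.14. Cdc45, a partner of the replicative helicase picked out after its value was seen, was at -0.35 ± 0.09 (adjusted p = 0.0301) but at 0.05 with median scaling, and kept the call in 3 of the 8 fits that left out 1 array, while Tyms, which makes thymidylate, was at -0.34 (adjusted p = 0.228) and Rfc4 at 0.06 (adjusted p = 0.713).

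Because the mitosis genes moved together, their promoters are shown with the motifs known for such genes: the CCAAT box (CCAAT, or ATTGG on the other strand), the cell cycle homology region or CHR (TTTGAA, or TTCAAA) and an E2F-type site (TTTNNCGC, or GCGNNAAA). Windows run from 150 bases before to 20 bases after the start in RefSeq (GRCm38.p6), 5′ to 3′ on the strand of the gene, and capitals mark any match on either strand. The 4 mitotic genes are Cdc20 (chr4:118437324-118437493, minus strand), Cdk1 (chr10:69352893-69353062, minus strand), Ccnb2 (chr9:70421535-70421704, minus strand) and Aspm (chr1:139454623-139454792, plus strand). They are set beside the replication gene Mcm6 (chr1:128359686-128359855, minus strand) and the cholesterol synthesis gene Hmgcs1 (chr13:119690201-119690370, plus strand).
Cdc20: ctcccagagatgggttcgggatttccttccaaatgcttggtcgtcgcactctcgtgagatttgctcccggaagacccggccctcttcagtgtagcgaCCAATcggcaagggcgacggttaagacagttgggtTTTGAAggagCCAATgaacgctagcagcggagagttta
Cdk1: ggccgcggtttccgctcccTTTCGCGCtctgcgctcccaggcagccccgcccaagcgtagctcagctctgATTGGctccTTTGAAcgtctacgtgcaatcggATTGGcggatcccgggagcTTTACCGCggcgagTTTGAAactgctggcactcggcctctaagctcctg
Ccnb2: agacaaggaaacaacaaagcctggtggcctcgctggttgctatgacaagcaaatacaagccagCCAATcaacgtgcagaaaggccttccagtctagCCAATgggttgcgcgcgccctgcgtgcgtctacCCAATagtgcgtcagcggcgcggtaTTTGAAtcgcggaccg
Aspm: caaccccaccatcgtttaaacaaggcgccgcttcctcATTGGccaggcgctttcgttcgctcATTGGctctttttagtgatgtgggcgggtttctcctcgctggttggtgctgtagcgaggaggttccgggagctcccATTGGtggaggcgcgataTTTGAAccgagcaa
Mcm6: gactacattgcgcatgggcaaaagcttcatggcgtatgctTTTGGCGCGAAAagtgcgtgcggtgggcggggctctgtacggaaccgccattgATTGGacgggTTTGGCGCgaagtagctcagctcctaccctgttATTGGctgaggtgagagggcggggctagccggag
Hmgcs1: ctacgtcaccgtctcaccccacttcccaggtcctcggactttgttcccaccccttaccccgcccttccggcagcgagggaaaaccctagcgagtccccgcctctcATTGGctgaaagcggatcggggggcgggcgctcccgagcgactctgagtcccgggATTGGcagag

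Each of the 4 mitotic windows holds at least 2 CCAAT boxes and a CHR that starts between 18 bases before and 7 bases after the start of the gene, and Cdk1 also holds 2 E2F-type matches. The Mcm6 window holds 3 E2F-type matches, of which 2 overlap, and no CHR; Hmgcs1 holds 2 CCAAT boxes and neither of the others. Over 300 bases (250 before to 50 after the start), 17 of the 19 mitosis genes with a promoter in the table held a CCAAT box and 14 a CHR, against 37.9% and 18.1% of all 27025 promoters. The CCAAT box was also held by 14 of 15 cholesterol synthesis genes and 13 of 20 replication genes, and a CHR by 1 of those 15. The E2F-type site was held by 9 of 20 replication genes and 1 of the 19 mitosis genes, against 5.27% of all promoters. A CHR was held by 2 of those 20 replication genes. These shares describe the lists as chosen; a match is not a bound site.

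Within slides the mitosis genes ran as follows. Against the mean of T1R1, the median level over the list lay at 3.31, 3.04, 3.46 and 2.88 on the T3R1 arrays and between -0.45 and 0.50 on the T1R1 arrays. The T2R1 arrays, on the slide of T1R1, read 0.49, 1.58, 1.09 and 1.20, so 3 of them lay above every T1R1 array and all lay below every T3R1 array. Control replicates 2 to 4, on the slide of T3R1, read -0.44 to 0.00, in the range of T1R1, and control replicate 1 read 3.48, as high as T3R1. The median T3R1 minus control difference of the list was 3.53 without control replicate 1 and 2.58 with it. Within that slide 1 of 22 members was called higher with all 4 controls (0.742% of gene names) and 21 without control replicate 1 (13.2%). For Mki67 the same-slide difference was 3.62 ± 0.38 (adjusted p = 7.1e-05, limma) without that array and 2.66 (adjusted p = 0.069) with it. The DNA replication list had a median T3R1 minus control difference of 1.11 without control replicate 1 and 0.72 with it. Of its 24 members limma called 19 higher without that array (13.2% of gene names) and 0 with it (0.742%).

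**Figure D1:**
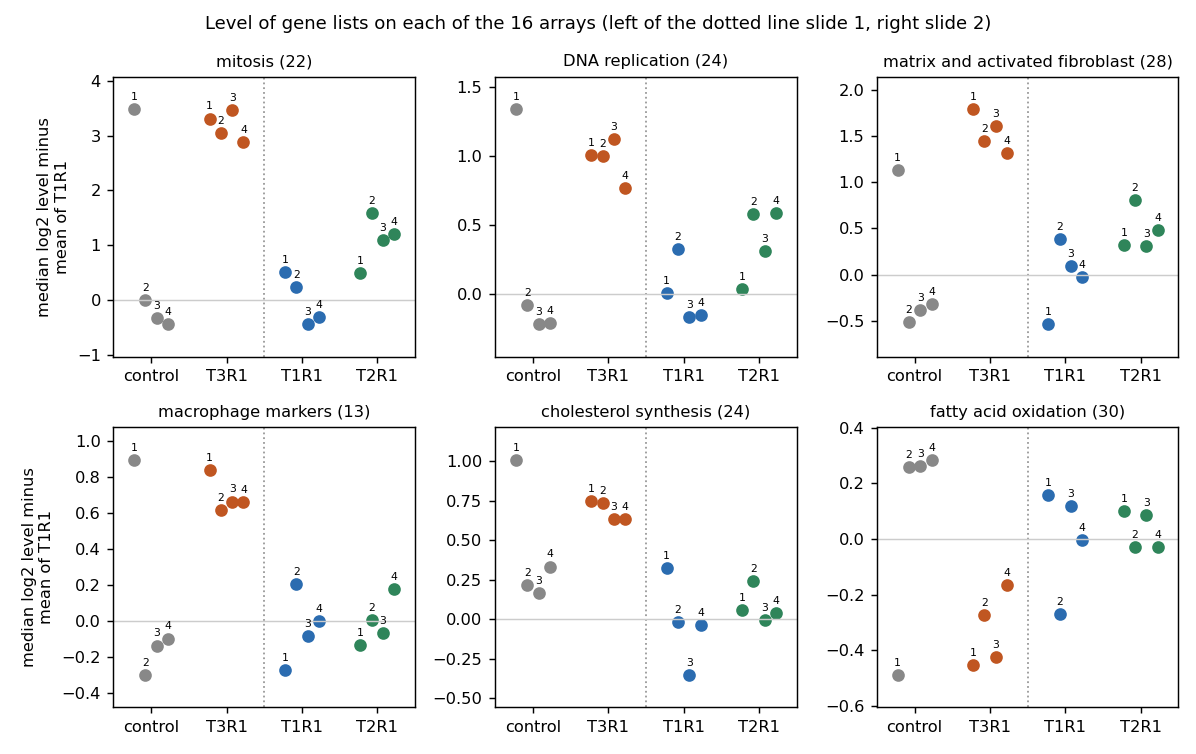
Median log2 level of 6 gene lists on each of the 16 arrays, relative to the mean of T1R1, with list sizes in brackets; numbers are replicates, and the dotted line parts slide 1 (control, T3R1) from slide 2 (T1R1, T2R1). In the mitosis panel the 4 T3R1 arrays sit between 2.88 and 3.46 with control replicate 1 at 3.48, and all T1R1 arrays sit at or below 0.50.

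Extracellular matrix genes rose as a second block. Of 21 collagen genes 17 were higher with a median of 1.48. Of 28 genes of the matrix and activated fibroblast list 22 were higher with a median of 1.53. Over all gene names 9.37% were higher. Col1a1, the main chain of type I collagen (chromosome 11 at 94813115 to 94813174), read 6.42, 5.95, 6.45 and 6.08 in T3R1 and 3.1, 4.02, 3.82 and 3.67 in T1R1. No T1R1 array came near the lowest T3R1 array, and the fold change was 2.57 ± 0.21 (adjusted p = 0.000682, limma). Col1a2, its partner chain, rose by 2.22 ± 0.15, the type III chain Col3a1 by 2.62 ± 0.26, Col5a1, which sets fibril width, by 2.26 ± 0.21, and the fibril-associated Col14a1 and Col16a1 by 1.82 ± 0.18 and 1.53 ± 0.13, though 1 of the other Col16a1 probes read 0.72 (adjusted p = 0.244). The basement membrane chains Col4a1 (0.72, adjusted p = 0.0607) and Col4a2 (0.38, adjusted p = 0.227) were the brightest of the collagens that did not pass.

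Cthrc1, a secreted protein of activated fibroblasts (chromosome 15 at 38918358 to 38918417), read 1.84, 1.04, 1.96 and 1.28 in T3R1 and -6.60, -3.1, -3.67 and -6.09 in T1R1. The probe was well above background on 4 of 4 T3R1 arrays and 1 of 4 T1R1 arrays, so the fold change of 6.39 ± 0.76 (adjusted p = 0.00139, limma) rests on dim values on 1 side and its size is uncertain. Postn, the matricellular protein periostin (chromosome 3 at 54194840 to 54194899), read 5.30, 4.70, 5.36 and 4.88 against 0.92, 2.24, 1.96 and 2.16. It was bright on all 8 arrays, without overlap, and rose by 3.24 ± 0.30 (adjusted p = 0.000839, limma). Lox, which crosslinks collagen, rose by 3.97 ± 0.53 and its relative Loxl3 by 2.32 ± 0.17; the fibre proteins Fbln2 and Mfap4 rose by 1.25 ± 0.13 and 2.22 ± 0.22. Tnc, the wound matrix glycoprotein tenascin C, rose by 3.96 ± 1.08 (adjusted p = 0.0328), with T1R1 replicates 2 and 3 at -1.68 and -1.81 and the others at -6.57 and -5.48; the call was lost without any of 6 of the 8 arrays (adjusted p up to 0.0817 without T1R1 replicate 4). Timp1, an inhibitor of matrix proteases, was at 2.39 and did not pass (adjusted p = 0.14), nor did the growth factor Ccn2 at 0.47 (adjusted p = 0.399).

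Spp1, the secreted phosphoprotein osteopontin (chromosome 5 at 104868502 to 104868561), read 1.38, 1.67, 1.74 and 0.74 in T3R1 and -3.88, -0.18, -3.47 and -3.62 in T1R1. T1R1 replicate 2 stood above its group, though still below every T3R1 array, and the difference was 4.17 ± 0.77 (adjusted p = 0.00701, limma). The same array stood out for Sprr1a, a small proline-rich protein of the cornified envelope: 4.53, 3.37, 4.69 and 3.98 in T3R1 against -2.66, 2.72, -0.82 and -0.76 in T1R1. That difference was 4.52 ± 0.99 (adjusted p = 0.0142, limma). Crct1, which lies near Sprr1a on chromosome 3 (probes at 92818192 to 92818251 and 92287955 to 92288014), read 0.88, 0.95, 2.03 and 1.02 against -6.26, -3.81, -3.61 and -4.62. It rose by 5.79 ± 0.56 (adjusted p = 0.000947, limma), with 1 T1R1 array well above background.

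Contractile proteins shared by smooth muscle and activated fibroblasts were higher, and the other 9 smooth muscle and pericyte markers were not called. Acta2, smooth muscle actin, rose by 1.24 ± 0.15, Tagln by 1.10 ± 0.09 and Cnn1 by 1.54 ± 0.33. These were the 3 of 12 that rose, against 9.37% of gene names higher, with a list median of 0.19. Fibroblast markers were higher in 7 of 12, against 9.37% of gene names, with a median of 0.58, or in 4 without T3R1 replicate 1. Besides Col1a1, Col3a1 and the growth factor receptor Pdgfra (0.35 ± 0.10, named after its value was seen) these were Mfap5 (1.45 ± 0.19), Thy1 (0.97 ± 0.22), the lineage factor Tcf21 (0.58 ± 0.10) and Lum (0.72 ± 0.16); Dcn, the brightest that did not pass, was at 0.17 (adjusted p = 0.339). In whole heart RNA more cells of a type and more RNA per cell cannot be told apart. Among 10 proteoglycans Aspn (1.81 ± 0.21), Bgn (0.91 ± 0.11) and Lum rose, against 9.37% of gene names higher. The TGF-beta list, 26 genes, had 3 higher and 1 lower, against 9.37% and 9.05% of gene names: Ltbp2, a latent TGF-beta binding protein, rose by 2.84 ± 0.30 and the signal carrier Smad3 by 0.36 ± 0.10 (called in 3 of the 8 fits that left out 1 array, and at -0.30 against control replicates 2 to 4, adjusted p = 0.0353, or -0.24 against all 4 controls, adjusted p = 0.171), Bmp4 fell by 0.34 ± 0.08 but read 0.07 with median scaling, and Scube3 was dim in T1R1 and at least 1.76-fold higher.

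Within the slide of T3R1, the collagen list had a median T3R1 minus control difference of 1.41 without control replicate 1 and 1.26 with it, and the matrix list 1.73 and 1.37. For Col1a1 these were 2.90 ± 0.19 (adjusted p = 4.1e-06, limma) and 2.30 (adjusted p = 0.0253), for Postn 3.99 ± 0.28 (adjusted p = 8.7e-06) and 3.08 (adjusted p = 0.0406). Acta2 was different: its same-slide difference was 0.38 (adjusted p = 0.071) without control replicate 1 and 0.32 (adjusted p = 0.213) with it. Within the slide of T1R1, T2R1 stood above T1R1 by a median of 0.50 over the collagens and 0.46 over the matrix list. Limma called 0 members. At an unadjusted p under 0.05, 11 of 21 and 5 of 28 were higher, against 8.01% of all features in either direction.

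**Figure D2:**
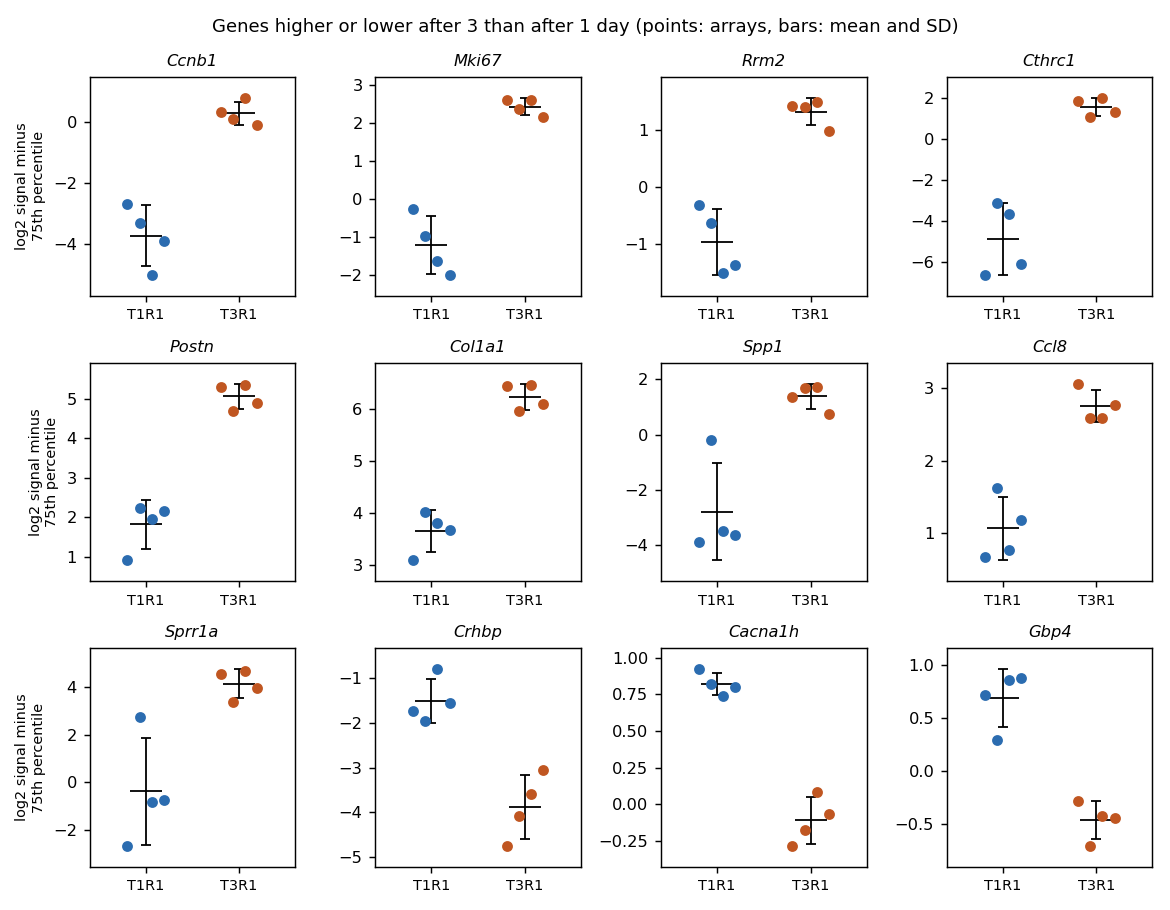
Log2 level of 12 genes on each array of T1R1 and T3R1 (points), with mean and SD (n = 4 per group). Ccnb1, Mki67, Rrm2, Cthrc1, Postn, Col1a1, Spp1, Ccl8 and Sprr1a lie higher on all T3R1 arrays, and Crhbp, Cacna1h and Gbp4 lie lower on all of them; T1R1 replicate 2 sits apart from its group for Spp1 at -0.18.

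Macrophage genes rose in part. Of 13 markers 7 were higher and 2 lower, against 9.37% and 9.05% of gene names, with a median of 0.68. Adgre1, a surface receptor that marks mouse macrophages, read 2.48, 2.08, 2.40 and 2.29 in T3R1 and 1.04, 1.37, 1.07 and 1.16 in T1R1. The groups were well apart for a change of 1.15 ± 0.12 (adjusted p = 0.00105, limma). Cd68, a lysosomal protein, rose by 1.08 ± 0.20, the mannose receptor Mrc1 by 0.79 ± 0.12, lysozyme Lyz2 by 0.86 ± 0.15, the complement component C1qa by 0.60 ± 0.14 and the fractalkine receptor Cx3cr1 by 1.82 ± 0.42, the last with T1R1 replicate 2 at 1.01, above the lowest T3R1 array at 0.85. The 2 that fell, picked out after their values were seen, were the resident macrophage receptor Timd4 at -0.78 (adjusted p = 0.0462) and the integrin Itgam at -0.40 (adjusted p = 0.0378), or 0.01 with median scaling, of which at most 1 was still called whichever array was left out. Other Itgam probes read -1.19 (adjusted p = 0.00324) and -0.05 (adjusted p = 0.851). Without control replicate 1 the same-slide median of the list was 1.13, and 9 of 13 were called higher and 2 lower, against 13.2% and 21% of gene names. With that array the median was 0.77, and limma called 0 higher and 1 lower, against 0.742% and 0.307%. At an unadjusted p under 0.05, 7 were higher and 2 lower. T2R1 differed from T1R1 by a median of -0.03.

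Chemokine genes gave 5 higher and 1 lower of 21, against 9.37% and 9.05% of gene names. Their median of 0.09 lies near that of all features. It ran from -0.27 without T1R1 replicate 1 to 0.50 without T1R1 replicate 2. The count of higher members ran from 2 without T3R1 replicate 1 to 7 without T1R1 replicate 2. Ccl8, which draws monocytes (chromosome 11 at 81930108 to 81930167), read 3.06, 2.58, 2.59 and 2.77 in T3R1 and 0.68, 1.63, 0.77 and 1.19 in T1R1. It was higher on every T3R1 array, by 1.68 ± 0.22 (adjusted p = 0.00181, limma), and within the slide by 3.31 without control replicate 1 and 2.43 with it. Cxcl10, induced by interferons, rose by 2.01 ± 0.38, the fractalkine Cx3cl1 by 0.74 ± 0.17, and Ccl3 and Ccl4, made by activated macrophages, by 1.40 ± 0.39 and 1.44 ± 0.41, lost in 6 and 5 of the 8 fits that left out 1 array (adjusted p up to 0.0914 and 0.0999). Ccl11, the eosinophil chemokine eotaxin, fell by 0.88 ± 0.16.

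Of 20 complement genes 5 were higher, against 9.37% of gene names: the first component chains C1qa, C1qb (0.66 ± 0.15) and C1qc (0.75 ± 0.12), the anaphylatoxin receptor C3ar1 (1.19 ± 0.17) and properdin Cfp (0.75 ± 0.20), the last called in 2 of the 8 fits that left out 1 array. The central component C3 was at -0.37 (adjusted p = 0.174). Interferon response genes were higher in 9 of 32 and lower in 2, against 9.37% and 9.05% of gene names, with a median of 0.15. Their count of higher members ran from 4 without T3R1 replicate 1 to 11 without T3R1 replicate 2. Mx1, an antiviral GTPase, rose by 1.88 ± 0.32, Isg15, a ubiquitin-like protein, by 1.00 ± 0.15, the RNA sensor Ddx58 by 0.56 ± 0.11, and the synthetases Oas3 and Oas1a by 1.37 ± 0.26 and 0.76 ± 0.17. Against these, Gbp4, a guanylate binding protein of the gamma interferon response (chromosome 5 at 105544852 to 105544911), read -0.28, -0.70, -0.42 and -0.44 in T3R1 and 0.72, 0.29, 0.86 and 0.87 in T1R1. It fell by 1.15 ± 0.15 (adjusted p = 0.00206, limma) and was lower than control on its own slide by 1.41, with control replicate 1 or without it. The transcription factor Irf1, seen after its value, was at -0.29 (adjusted p = 0.0404), but at 0.12 with median scaling, and lost its call in each of the 8 fits that left out 1 array.

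Cholesterol synthesis genes were higher in 12 of 24, against 9.37% of gene names, with a median of 0.70. The count ran from 7 without T3R1 replicate 2 to 17 without T1R1 replicate 1. Scd2, a desaturase of fatty acids (chromosome 19 at 44381024 to 44381083), read 3.54, 3.65, 3.53 and 3.42 against 2.89, 2.37, 2.04 and 2.16, a rise of 1.17 ± 0.18 (adjusted p = 0.00331, limma). T1R1 replicate 1 was nearest to T3R1 here. The isoprenoid enzymes Idi1 (0.98 ± 0.19) and Fdps (0.66 ± 0.11), the sterol enzyme Cyp51 (0.77 ± 0.15), and Hmgcs1, the synthase whose promoter is printed above (0.41 ± 0.08), rose as well. Within the slide of T3R1 the list had a median of 0.45 above control without control replicate 1. Of 24 genes 13 were then called higher, against 13.2% of gene names. With that array the median was 0.25 and limma called 0 (7 at an unadjusted p under 0.05, 6 of them higher). Without that array Hmgcs1 was at 0.09 (adjusted p = 0.47, limma).

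Fat cell markers varied between arrays of a group. Of 15 adipocyte markers 0 passed limma in either direction, yet their median was 1.98. At an unadjusted p under 0.05 there were 8 of the 15, 7 of them higher, against 35.9% of all features in either direction. On single arrays the list median, set against the mean of T1R1, was 2.54 on T1R1 replicate 1. It lay between -0.79 and -0.40 on the other T1R1 arrays and between 1.06 and 2.85 on T3R1. Without T1R1 replicate 1 the median was 3.00 and 10 of 15 were called higher. The 4 control arrays, on the slide of T3R1, read 3.53, 1.07, 1.02 and 2.83 on the same scale. Within that slide the median T3R1 minus control difference was -0.38, or -0.03 without control replicate 1. Limma called 0 of the 15 higher in either fit, against 0.742% and 13.2% of gene names, and 1 lower without control replicate 1. Ucp1, the uncoupling protein of brown fat (chromosome 8 at 85821788 to 85821847), read 5.07, 2.24, 2.73 and 2.75 in T3R1 and 2.63, -1.84, -4.94 and -6.11 in T1R1. These groups overlapped, and its call of 5.76 ± 1.74 (adjusted p = 0.0475, limma) was lost in 7 of the 8 fits that left out 1 array. Cidea (0.72 ± 0.22) and the deiodinase Dio2 (0.89 ± 0.23) were the other brown fat markers called, of 11, against 9.37% of gene names higher. They kept the call in 1 and 4 of those 8 fits. The count of brown fat markers called higher ran from 0 without T3R1 replicate 1 to 4 without T1R1 replicate 1. The cholesterol list shares Scd1 (2.50, adjusted p = 0.0821) and Fasn (2.55, adjusted p = 0.0724) with the adipocyte list. Fasn was picked out after its value was seen. The part of fat tissue in the lipid gene changes was not tested.

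**Figure D3:**
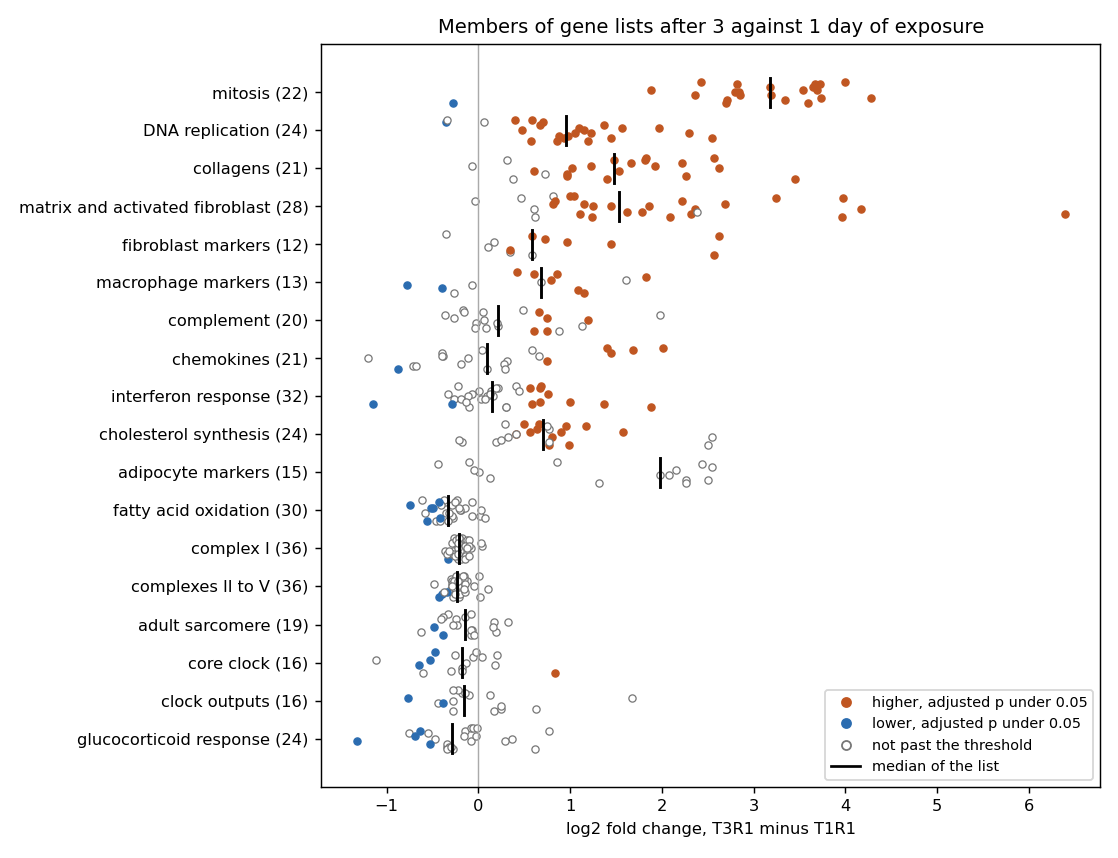
Log2 fold change, T3R1 minus T1R1, of every measured member of 18 gene lists (sizes in brackets); filled points passed an adjusted p of 0.05 and bars are list medians. Mitosis has the highest median at 3.18. The adipocyte markers come next at 1.98, spread widely and with none called, and matrix genes and collagens follow at 1.53 and 1.48. The medians of the lists from fatty acid oxidation down lie between -0.33 and -0.14, below the median of all features at -0.06, and median scaling would move every point to the right by nearly the same amount.

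Genes of energy metabolism and the contractile apparatus gave few calls. Fatty acid oxidation genes were lower in 6 of 30, with a median of -0.33, against 9.05% of gene names lower; with median scaling the list median was 0.07, where that of all features was 0.34. Hadha, a subunit of the mitochondrial trifunctional protein, read 3.81, 3.59, 3.71 and 3.89 in T3R1 and 4.48, 3.97, 4.49 and 4.29 in T1R1. T3R1 lay lower on every array, by 0.56 ± 0.14 (adjusted p = 0.0219, limma), a call kept in 2 of the 8 fits that left out 1 array. Acot2 (-0.74 ± 0.15), Lpl, the lipase that feeds fatty acids to muscle (-0.51 ± 0.13), Acadm (-0.50 ± 0.14), Hadhb (-0.43 ± 0.12) and Decr1 (-0.42 ± 0.11) were the others, and all but Acot2 lost the call in most fits that left out 1 array. The count of lower members ran from 1 without T3R1 replicate 1 to 16 without T1R1 replicate 2. Within the slide of T3R1 the list median was -0.46 against all 4 controls, and limma called 0 lower, against 0.307% of gene names. Without control replicate 1 the median was -0.65, and 25 of 30 were called lower and 0 higher, against 21% and 13.2%.

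Respiratory chain genes showed 1 of 36 lower in complex I and 3 of 36 in complexes II to V, below the 9.05% of all gene names, with medians of -0.22 and -0.23, or 0.19 and 0.17 with median scaling. Those called were Ndufa1 (-0.33), Atp5e (-0.39), Cox6c (-0.34) and Cox7a1 (-0.43), and the first 3 read 0.08, 0.01 and 0.07 with median scaling; each kept the call in at most 2 of the 8 fits that left out 1 array. Within the slide of T3R1, limma called 0 genes of either list lower with all 4 controls, with medians of -0.36 and -0.34 (14 of each list were lower at an unadjusted p under 0.05, and 0.307% of gene names were called lower). Without control replicate 1, 36 of 36 genes of complex I and 33 of 36 of the other complexes were lower, with medians of -0.58 and -0.57, against 21% of gene names. Control replicate 1 lay at -0.50 for complex I, on the side of T3R1 (-0.39 to -0.05).

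Adult sarcomere genes were lower in 2 of 19 (median -0.14, or 0.26 with median scaling) and cardiomyocyte markers in 1 of 12 (median -0.23, or 0.18), against 9.05% of gene names. The genes called were Myom2, Ldb3 and Mb, myoglobin, at -0.38, -0.48 and -0.40, which kept the call in 2, 1 and 2 of the 8 fits that left out 1 array, and both counts fell to 0 without T3R1 replicate 1; another Ldb3 probe read -0.02, and Myom2 and Mb read 0.02 and 0.00 with median scaling. Within the slide of T3R1, limma called 0 genes of either list with all 4 controls. Without control replicate 1, 12 of 19 sarcomere genes were lower and 1 higher than control. Of the 12 cardiomyocyte markers 7 were then lower and 0 higher, against 21% and 13.2% of gene names. In the list of fetal and stress genes of muscle, 0 of 19 were called by limma and the median was -0.00. At an unadjusted p under 0.05 there were 3 of the 19, 1 of them higher, against 35.9% of all features in either direction. Nppa, the atrial natriuretic peptide, was at 0.20 ± 0.14 (adjusted p = 0.351), and Nppb at -0.49 ± 0.58, Myh7 at 0.08 ± 0.63, Acta1 at 0.14 ± 0.58 and Myh6 at -0.33 ± 0.25 did not pass (adjusted p from 0.386 to 0.938). The wide errors of the middle 3 came with T1R1 replicate 1, where Nppb read 5.18, Myh7 3.89 and Acta1 4.81 against 7.48 to 7.71, 6.35 to 7.01 and 7.14 to 7.55 on the other T1R1 arrays. Pdk4, which turns muscle from glucose to fat, was at -0.47 (adjusted p = 0.26). Among 19 calcium handling genes Cacna1h, the T-type channel of the fetal heart, fell most clearly: -0.28, -0.18, 0.09 and -0.07 in T3R1 against 0.92, 0.82, 0.74 and 0.80 in T1R1. That is a fall of 0.93 ± 0.10 (adjusted p = 0.00112, limma) without overlap, though another probe read -0.49 (adjusted p = 0.0621). Camk2a (-0.55 ± 0.11) and the store protein Hrc (-0.66 ± 0.19) were lower and Fkbp1b, which steadies the ryanodine receptor, higher (0.74 ± 0.11). Another Camk2a probe read -0.13 (adjusted p = 0.656), and Hrc kept the call in 2 of the 8 fits that left out 1 array.

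Among the clock genes 1 core gene was higher and 3 lower of 16, and 2 output genes were lower of 16, against 9.37% and 9.05% of gene names. Arntl, the activator of the loop (chromosome 7 at 120457261 to 120457320), read -1.10, -1.18, -1.42 and -0.64 in T3R1 and -1.81, -2.03, -2.37 and -1.48 in T1R1, a rise of 0.84 ± 0.22 (adjusted p = 0.0285, limma). Dbp, its direct target (chromosome 7 at 52965461 to 52965520), read 4.94, 5.36, 5.26 and 4.93 against 6.04, 5.83, 6.06 and 5.65, a fall of 0.77 ± 0.14 (adjusted p = 0.00724, limma). Neither gene overlapped between the groups, which held for 23.9% of gene names. The repressors Per1, Per2 and Cry2 fell by 0.53 ± 0.15, 0.64 ± 0.19 and 0.47 ± 0.09, Cry2 with 1 T3R1 value missing, and the output factor Tef by 0.39 ± 0.11, which read 0.02 with median scaling. Ciart at -1.11 ± 0.43 (adjusted p = 0.0973), Nr1d1 at -0.60 ± 0.32 (adjusted p = 0.221) and Cry1 at -0.30 ± 0.17 (adjusted p = 0.242) did not pass. The list medians of -0.18 and -0.16 were 0.23 and 0.25 with median scaling. Arntl, Per1, Per2 and Tef lost their calls in 6, 7, 6 and 6 of the 8 fits that left out 1 array (adjusted p up to 0.0699, 0.109, 0.115 and 0.103).

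Within the slide of T3R1 some of these differences were absent and some remained. Dbp differed from control replicates 2 to 4 by 0.05 (adjusted p = 0.87), Per1 by -0.15 (adjusted p = 0.66), Per2 by -0.14 (adjusted p = 0.85) and Arntl by -0.40 (adjusted p = 0.32), and these 4 did not pass with all 4 controls (adjusted p from 0.473 to 0.89). Cry2 (-0.46, adjusted p = 0.0041), Tef (-0.44, adjusted p = 0.0115) and Cry1 (-0.90, adjusted p = 0.000997) were lower than those 3 controls, as were 6 of the 16 core clock genes, against 21% of gene names. With all 4 controls 1 of the 16 was, against 0.307%: Cry1 was at -0.79 (adjusted p = 0.032), while Cry2 (-0.32, adjusted p = 0.175) and Tef (-0.34, adjusted p = 0.133) did not pass. T2R1, on the slide of T1R1, was at 6.20 for Dbp and -2.40 for Arntl, beyond the T1R1 means of 5.89 and -1.92 on the side away from T3R1. For Dbp all 8 arrays of slide 1, control included, lay below all 8 of slide 2. Exposure, slide and hour of collection cannot be told apart here.

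**Figure D4:**
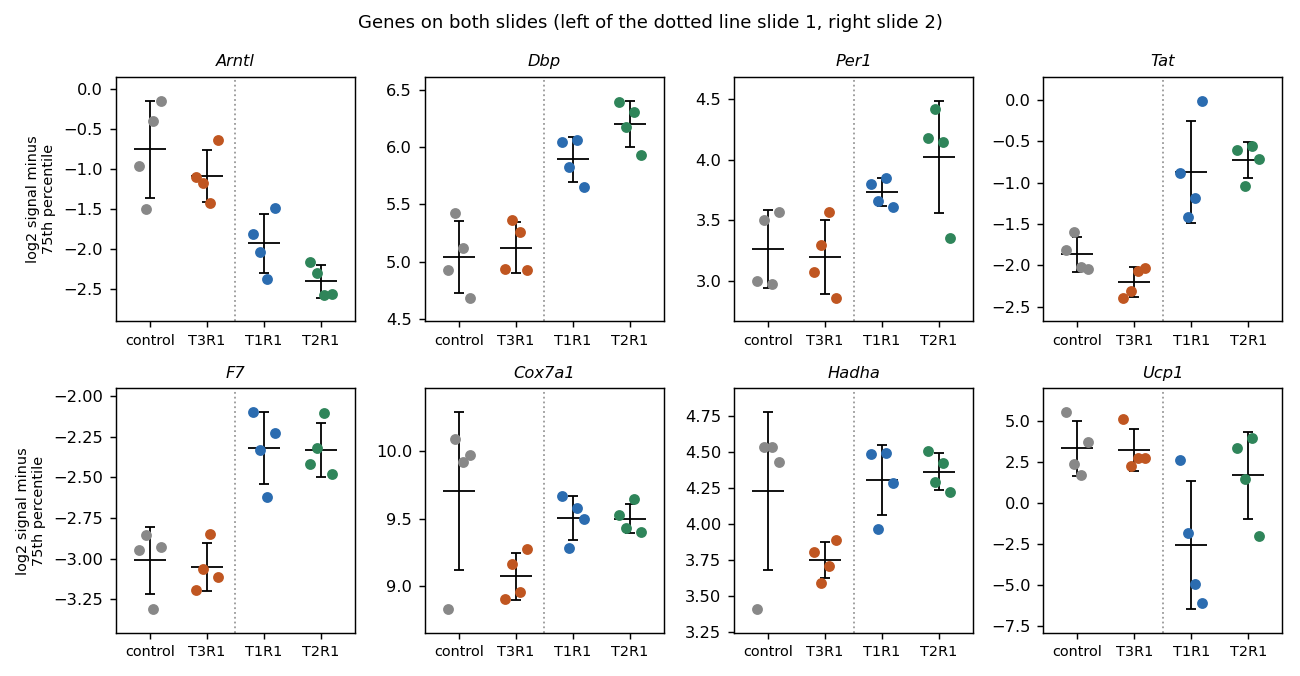
Log2 level of 8 genes on all 16 arrays with mean and SD (n = 4 per group); the dotted line parts slide 1 from slide 2. For Dbp, Tat and F7 every control and T3R1 array lies below every T1R1 and T2R1 array, Arntl lies the other way but for control replicate 2 at -1.5, and Cox7a1 and Hadha are lowest in T3R1 and control replicate 1 (8.83 and 3.41).

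Genes driven by glucocorticoids were lower in 4 of 24, against 9.05% of gene names, with a median of -0.28, or 0.12 with median scaling; the count fell to 1 without T3R1 replicate 1. Tat, a hormone-induced enzyme of tyrosine breakdown (chromosome 8 at 112523207 to 112523266), read -2.39, -2.31, -2.07 and -2.03 in T3R1 and -0.88, -1.42, -1.19 and -0.01 in T1R1. It fell by 1.33 ± 0.28 (adjusted p = 0.0125, limma) without overlap and was at -0.32 (adjusted p = 0.39) against control replicates 2 to 4. The bile acid carrier family member Slc10a6 (-0.64 ± 0.19) and the sulfotransferase Sult1a1 (-0.69 ± 0.19) were the others besides Per1; they kept the call in 2 and 2 of the 8 fits that left out 1 array, and Per1 in 1. The receptor chaperone Fkbp5, at 0.36 ± 0.15 (adjusted p = 0.116), and Tsc22d3, the anti-inflammatory GILZ, at -0.30 ± 0.12 (adjusted p = 0.122), did not pass. Crhbp, which binds and holds the stress hormone CRH (chromosome 13 at 96201903 to 96201962), read -4.74, -4.08, -3.60 and -3.06 in T3R1 and -1.73, -1.97, -0.81 and -1.55 in T1R1. Its fall of 2.36 ± 0.38 (adjusted p = 0.0039, limma) was among the 12 lowest fold changes, and T3R1 differed from control replicates 2 to 4 by -0.65 (adjusted p = 0.16). The cellular stress genes Hspa1a (-1.05, adjusted p = 0.252) and Cdkn1a (0.61, adjusted p = 0.161), the acute phase gene Lcn2 (0.77, adjusted p = 0.399), the neutrophil gene S100a8 (-0.82, adjusted p = 0.508) and the xenobiotic enzyme Cyp1a1 (1.29, adjusted p = 0.247) did not pass.

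Other cell type markers gave few calls, to be read against the 9.37% of gene names higher and 9.05% lower. T and NK cell markers were lower in 3 of 11 (Cd247 -0.64 ± 0.14, Gzma -0.58 ± 0.16, Nkg7 -0.45 ± 0.11), with a median of -0.58. Without T3R1 replicate 1 the count was 1, and Gzma and Nkg7 kept the call in 2 and 4 of the 8 fits that left out 1 array. Liver markers were lower in 3 of 13, which were Tat and the coagulation genes F7 (-0.73 ± 0.13) and Fga (-0.71 ± 0.17); F7 and Fga differed from control replicates 2 to 4 by -0.02 and -0.04 and from all 4 controls by -0.04 and 0.14, and Fga kept the call in 4 of those 8 fits. Their summed log2 level overlapped between the groups, at 3.47 to 5.40 in T3R1 and 3.34 to 6.30 in T1R1. Endothelial markers were lower in 2 of 14 (Ly6c1 -0.52 ± 0.10, Robo4 -0.51 ± 0.11), median -0.20, or 0.20 with median scaling. In the nerve and Schwann cell list Nefl (2.20 ± 0.58), Prph (2.41 ± 0.58) and Pmp22 (0.37 ± 0.08) were higher of 14, the neurofilament genes with T1R1 replicate 1 in reach of T3R1 (-3.13 against -3.09 at the lowest for Nefl). Nefl kept the call in 1 of those 8 fits, and another Pmp22 probe read -0.09 (adjusted p = 0.632).

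The lowest fold changes among gene names came mostly from dim probes. Alox12b, a lipoxygenase of skin, fell by 2.13 ± 0.55 and the ubiquitin ligase Cblc by 2.21 ± 0.42, though another Cblc probe read 0.95 (adjusted p = 0.309) and another Alox12b probe -0.34 (adjusted p = 0.27). Rgs8, Slc16a5, Gm3552, C86187, 4930598N05Rik, D630014O11Rik, the vomeronasal receptor Vmn1r231 and the olfactory pseudogene Olfr1300-ps1 had fold changes from -2.77 to -2.11, with T3R1 well above background on 1 to 3 arrays; Gm3552 and Slc16a5 kept the call in 4 and 3 of the 8 fits that left out 1 array. For Cyp2w1 and Olfr1106, not well above background on any T3R1 array, T1R1 was at least 3.13-fold and 2.73-fold higher, the latter called in 2 of those 8 fits.

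Long noncoding RNA probes were lower far more often than gene names. Of 5005 tested 1548 (30.9%) were lower and 111 (2.22%) higher, with a median of -0.34. Dim gene probes were also lower more often than bright ones. With all features split by level into 4 equal classes, 17.1% of gene names and 30.1% of noncoding probes were lower in the dimmest, 14% and 38.6% in the next, 5.33% and 25.1% in the third and 4.01% and 6.62% in the brightest. The count of lower noncoding probes was 905 with quantile normalization, 899 with the authors' values and 385 with median scaling. Within slides the median of these probes was -0.21 for T3R1 minus control without control replicate 1 and -0.11 with it, and 0.11 for T2R1 minus T1R1. Gene names had medians of -0.09, -0.06 and 0.02 there. Without control replicate 1, 948 of the 5005 noncoding probes were lower than control and 188 higher, against 21% and 13.2% of gene names. With all 4 controls 9 were lower and 16 higher, against 48 and 116 of 15642 gene names. Noncoding probes were thus not lower more often than gene names within that slide. The part of signal strength in the direct difference was not tested beyond the 4 classes of level.

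**Figure D5:**
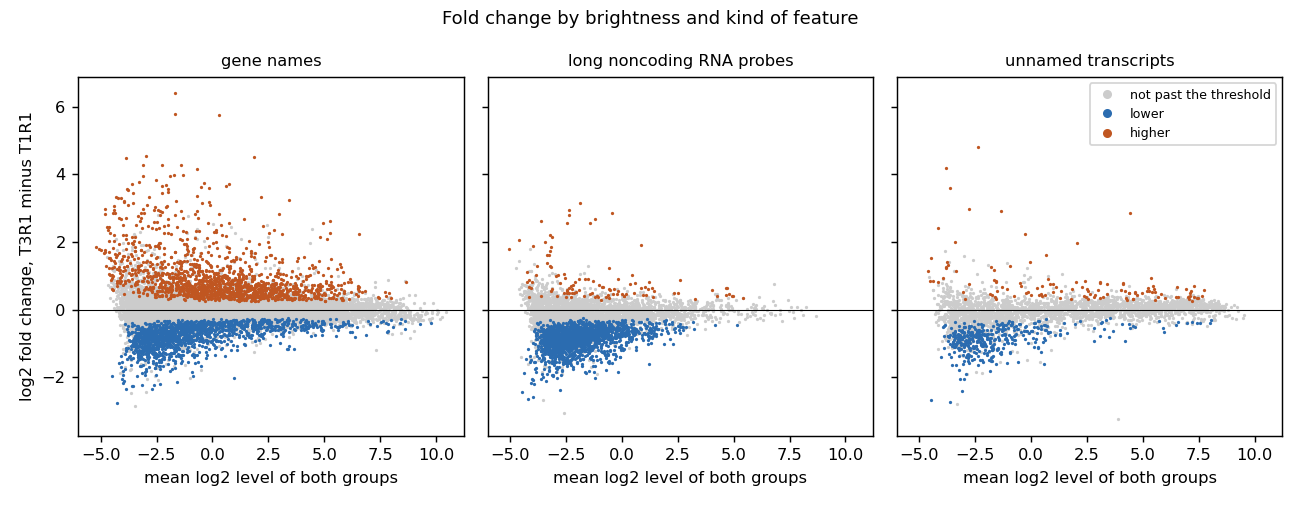
Log2 fold change, T3R1 minus T1R1, against the mean log2 level of both groups, in panels for named genes, for noncoding RNA and for transcripts without a name; orange and blue points passed an adjusted p of 0.05. Noncoding probes lie mostly at low levels and below 0, with 1548 lower and 111 higher, while gene names split almost evenly, 1465 and 1416; the split moves with the scaling of the arrays.

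Probes without a gene name that passed at the ends of the scale are given by their 60-base sequences, since nothing else names them. They lie on chromosome 4 at 118614552 to 118614611 (A_55_P2103706) and at 39842177 to 39842236 (A_55_P2024391), on chromosome 5 at 144200191 to 144200250 (NAP102625-1), and, for the lowest long noncoding RNA, on chromosome 8 at 26453852 to 26453911.
A_55_P2103706: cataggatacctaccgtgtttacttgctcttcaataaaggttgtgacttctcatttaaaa
A_55_P2024391: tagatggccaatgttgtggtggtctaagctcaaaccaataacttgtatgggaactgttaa
NAP102625-1: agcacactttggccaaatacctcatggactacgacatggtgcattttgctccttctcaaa
Noncoding probe on chromosome 8: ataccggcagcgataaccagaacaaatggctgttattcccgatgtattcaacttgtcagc

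A_55_P2103706 read 0.07, 0.02, 0.22 and -0.17 in T3R1 and -3.56, -4.50, -5.09 and -5.91 in T1R1. All T3R1 arrays were above all T1R1 arrays, by 4.80 ± 0.43 (adjusted p = 0.000831, limma). A_55_P2024391 and NAP102625-1 were well above background on no T1R1 array and at least 5.54-fold and 5.16-fold higher. The noncoding probe on chromosome 8 read -6.51, -6.70, -4.28 and -4.63 in T3R1 and -3.59, -4.51, -1.60 and -1.85 in T1R1, which overlap; its call of -2.64 ± 0.80 (adjusted p = 0.0476, limma) was lost in 6 of the 8 fits that left out 1 array. The unnamed A_55_P1987086, lower in T3R1, was at least 3.12-fold higher in T1R1, and the transcript ENSMUST00000062902 was at -2.72 ± 0.64 (adjusted p = 0.0187, limma).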

How the data were processed

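Each of 16 hearts was hybridised to 1 array; 8 arrays entered the comparison and the others the fit within slides. Per the file headers, intensities were extracted with Feature Extraction 10.7.3.1, which subtracted background within the array, and 59305 spots were read per array. The deposited value table holds the authors' log2 values, with a normalization that no label or header names; it served as an alternative only. From the processed intensities, log2 was taken, the 75th percentile of each array was subtracted, outlier spots were left out and spots of a probe averaged. Subtraction of background makes dim values uncertain, and the percentile fixes what counts as no change.

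Of 55681 probes, 28860 were kept, being well above background on all 4 arrays of T3R1 or of T1R1, and the brightest probe stood for each gene name, giving 23575 features. Gene names come from the array files, updated by RefSeq; 5005 features are long noncoding RNA and 2928 have no name. Groups were compared with limma 3.58.1 in R 4.3.3 (2 groups of 4, adjusted p under 0.05 by Benjamini-Hochberg). Comparisons within slides used a fit of all 16 arrays, and for T3R1 against control also a second fit without control replicate 1. The method was tested on simulated data. Nothing in the labels says whether samples of a group were handled separately beyond being separate hearts. The p-values weigh the difference between groups against the spread within groups. In the direct comparison that spread holds no difference between slides.

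Named genes are the 12 highest and 12 lowest called fold changes without overlap, up to 5 bounds each way, up to 6 called and 2 other members of each list described, a fixed set of stress, clock and matrix genes, and a few genes picked after their values were seen and marked as such. Some genes that this rule takes in are not reported here. A bound of "at least N-fold" sets the mean of the bright group against the lowest signal well above background on each array of the dim group. The members and lists were chosen with earlier results of these data known. Alternatives were background correction, scaling, the filter, probe choice, other limma settings, blocks and leaving out each array.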

Additional observations from a re-analysis of the deposited data

Results flagged for a closer look

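Among 336 sets of 4 values of named genes, 20 held 1 array whose gap to the nearest of the other 3 relative to the whole range passed the 95% critical value of Dixon's test; chance gives about 1 in 20. T1R1 replicate 1 stood low for the muscle genes Nppb (5.18 against 7.48 to 7.71) and Acta1 (4.81 against 7.14 to 7.55) and high for the lipid genes Fasn (1.57 against -2.54 to -2.0) and Scd1 (4.12 against -0.17 to 0.50) and for C3 (6.69 against 6.03 to 6.08). T1R1 replicate 2 stood high for Spp1 (-0.18 against -3.88 to -3.47) and low for Sult1a1 (3.01 against 3.61 to 3.70). T1R1 replicate 3 stood high for the dim probes A_55_P1987086 (-2.28) and Olfr1300-ps1 (-1.89), and T1R1 replicate 4 for Cyp1a1 (-1.47 against -5.07 to -4.66).

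In T3R1, replicate 4 stood low for the division genes E2f1 (-0.65), Melk (-1.44) and Rrm2 (0.98 against 1.42 to 1.49) and for Timp1 (5.00 against 5.8 to 5.89). Replicate 1 stood high for the proteoglycan Bgn (3.75) and low for Hmgcs1 (3.05), Olfr1106 (-5.92) and Olfr1300-ps1 (-6.59). Replicate 2 stood low for Acta1 (6.28) and replicate 3 high for Crct1 (2.03). No cause was tested.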

How the results depend on the processing

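The count of changed features ran from 3162 without T3R1 replicate 1 to 5767 without T1R1 replicate 2, with 1041 to 2252 higher and 2121 to 3515 lower when 1 array was left out. Median scaling gave 4094 higher and 730 lower, quantile normalization 2190 lower, and no filter on dim probes 811 higher; 1412 features also changed at least 2-fold. The higher share of called features was 47.2% with quantile normalization, 48.4% with the authors' values and 21.9% with no filter. T3R1 against control gave 7163 changed features without control replicate 1 and 206 with it. Other totals lay between 3699 and 6432. Of 142 named features called, 73 kept the call under every alternative that held them, 69 lost it under at least 1 and 12 changed sign. With median scaling these read 0.0124 (Atp5e), 0.0661 (Bmp4), 0.0536 (Cdc45), 0.125 (Cenpa), 0.066 (Cox6c), 0.116 (Irf1), 0.00909 (Itgam), 0.00329 (Mb), 0.023 (Myom2), 0.0771 (Ndufa1) and 0.0153 (Tef). Cdc45 also read 0.0235 with the authors' values and Scube3 -0.163 with no filter, where another probe stood for it. List medians that turned positive with median scaling were fatty acid oxidation 0.0745, complex I 0.189, complexes II to V 0.17, adult sarcomere 0.261, cardiomyocyte 0.176, core clock 0.228, clock outputs 0.245, glucocorticoid 0.12, brown fat 0.202 and endothelial 0.199; the median of all features moved to 0.34 there. The shared replicate number as a block gave 3849 changed features. Deviations of same-numbered arrays correlated at -0.0619, 0.273, 0.123 and -0.0176. So few values cannot show whether the numbers pair the samples, and the labels state no pairing. Blocking on the row of the slide, the fold of at least 2 and leaving out control replicate 1 were added after seeing the data. Dim probes limit fold changes, and slide and exposure cannot be told apart.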
